A study of Mus musculus with 9 samples.

Results

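The A-kinase anchoring proteins (AKAPs) were examined in wild-type (WT) dendritic cells (DCs) and in DCs depleted of *Gnas*. The family was followed through 10 genes, *Akap1*, *Akap2*, *Akap5*, *Akap8*, *Akap8l*, *Akap9*, *Akap10*, *Akap11*, *Akap12* and *Akap13*. They were taken by gene symbol from a table of 30588 genes, and all 10 were found in it. DCs were grown from bone marrow of C57BL/6J mice for 6 days with granulocyte-macrophage colony-stimulating factor and selected on magnetic beads for CD11c. RNA-Seq was done on 5 WT libraries (replicates 3 to 7) and 4 Δ*Gnas* libraries (Gnas_KO, replicates 3, 4, 6 and 7), which the study describes as biological replicates. Δ*Gnas* mice carry floxed *Gnas* alleles that are recombined by Cre under the CD11c promoter. Deletion is thus limited to cells in which that promoter has been active. The study attributes the *Gnas* that remains in Δ*Gnas* DCs to leakiness of this Cre. The labels give male mice for 2 libraries of each genotype and female mice for 3 WT libraries and 2 Δ*Gnas* libraries. The ages of the mice and the alleles carried by the WT mice were not given in the sources used here.

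*Gnas* encodes Gαs, the G protein subunit that activates adenylyl cyclase. The cAMP that adenylyl cyclase makes binds the regulatory subunits of protein kinase A (PKA) and frees its catalytic subunits. AKAPs hold the regulatory subunits, most often those of type II, at a membrane, an organelle, the centrosome or the nucleus, together with phosphatases, phosphodiesterases and other kinases, so that cAMP acts on nearby substrates. The comparison asked whether the genes of these scaffolds are expressed at other levels in DCs depleted of *Gnas*.

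*Gnas* was at 404 to 532 TPM (a level scaled to transcript length and to the library's total) in WT DCs and at 48.0 to 63.6 TPM in Δ*Gnas* DCs, without overlap. Libraries held 34252701 to 49427934 estimated counts. WT replicate 3 stood apart in its share of mitochondrially encoded genes, 1.39% of all TPM, where the other libraries had 5.85 to 8.54%. WT replicate 7 is labelled female and had 21.3 TPM of the Y-linked gene *Ddx3y*, against at most 0.160 TPM in the other 4 libraries labelled female. Of 8 DC markers, 2 rose and 2 fell. Their sums were 13924 to 25105 TPM in WT and 19599 to 23726 TPM in Δ*Gnas* DCs. *Cd74* made up most of each sum, at 9128 to 17639 TPM. *Itgax*, which encodes CD11c, averaged 174 ± 82.3 TPM (SD, n = 5) in WT and rose to 360 ± 37.9 TPM (n = 4) in Δ*Gnas* DCs (edgeR, adjusted p = 0.0272). Of 8 macrophage markers, 6 fell and none rose, with sums of 2395 to 3473 TPM in WT and 732 to 1414 TPM in Δ*Gnas* DCs, and none was at 0 in every library. In bulk RNA, fewer cells of a type and less RNA per cell cannot be told apart.

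The members spanned a wide range of levels. *Akap13* was highest, at 37.9 ± 12.9 TPM (SD, n = 5) in WT and 31.5 ± 9.02 TPM (n = 4) in Δ*Gnas* DCs, and its WT mean lay above those of 75.5% of the 11862 genes tested. *Akap12* was lowest, at 0.0126 to 0.0741 TPM. In order of mean TPM over the 9 libraries the genes were *Akap13*, *Akap8l*, *Akap8*, *Akap10*, *Akap2*, *Akap9*, *Akap11*, *Akap1*, *Akap5* and *Akap12*. Δ*Gnas* DCs had this same order of means, and WT DCs differed from it only in the places of *Akap2* and *Akap9*. Of the 9 neighbouring pairs in this order, 6 differed by an exact two-sided sign-flip permutation test of the log2 TPM difference within libraries, adjusted over the 9 pairs. *Akap13* and *Akap8l* (adjusted p = 0.236), *Akap8l* and *Akap8* (0.727), and *Akap2* and *Akap9* (0.727) did not differ beyond their spread. *Akap8* exceeded *Akap10*, *Akap9* exceeded *Akap11*, *Akap11* exceeded *Akap1*, *Akap1* exceeded *Akap5* and *Akap5* exceeded *Akap12* in all 9 libraries, each with an adjusted p of 0.00703 by that exact test and the smallest unadjusted p it can give, 0.00391. *Akap10* exceeded *Akap2* in 7 of 9 libraries (exact test, adjusted p = 0.0469). With each library left out in turn, 5 to 6 of these same pairs differed. The 5 pairs that held in all 9 libraries differed each time, and *Akap10* and *Akap2* differed only without WT replicate 3 or Δ*Gnas* replicate 3 (exact test, adjusted p = 0.0352 in both, and 0.0586 to 0.0938 without any other library). Without WT replicate 4, WT replicate 6 or Δ*Gnas* replicate 3, *Akap9* came before *Akap2* in the order of means, and 4 of the neighbouring pairs of that order differed.

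**Figure D1:**
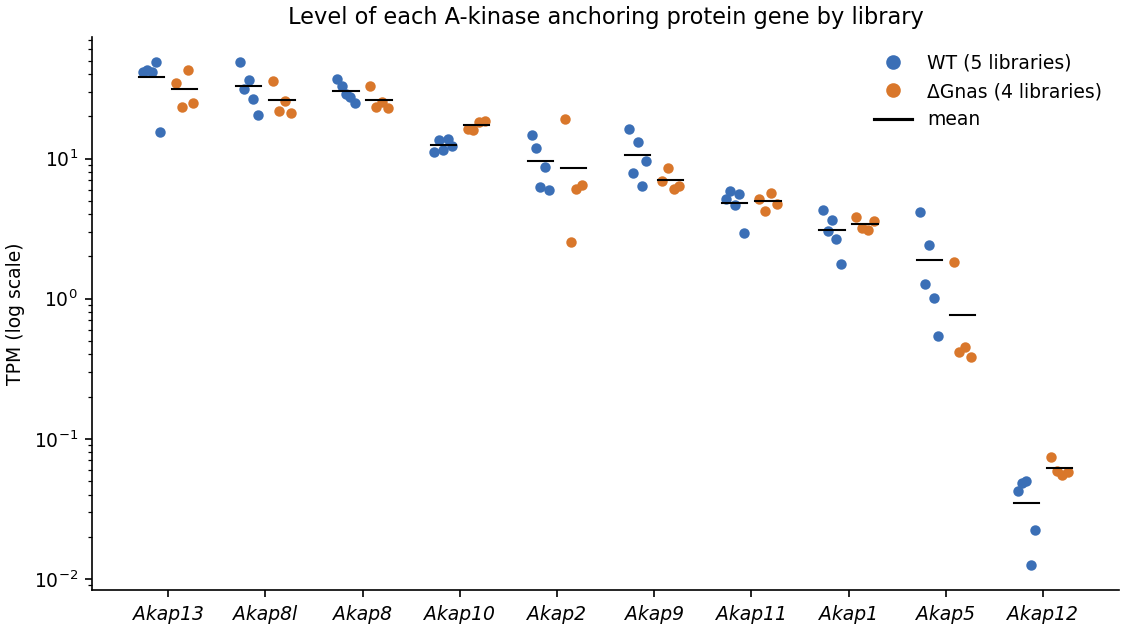
Level of the 10 genes in each library, in TPM on a log axis, with WT libraries in blue, Δ*Gnas* libraries in orange and the mean of each genotype as a black line. The genes run from *Akap13*, with a WT mean of 37.9 TPM, to *Akap12*, at no more than 0.0741 TPM. Only *Akap10* and *Akap12* have genotypes that do not overlap, where 10.6% of all genes tested did not. *Akap12* was too low to be tested, at 0.584 to 2.95 estimated counts per library.

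The 10 genes together gave 183, 150, 149, 141 and 93.9 TPM in WT replicates 3 to 7 and 157, 104, 134 and 109 TPM in Δ*Gnas* replicates 3, 4, 6 and 7. WT replicate 3 had the highest sum and WT replicate 7 the lowest, and all Δ*Gnas* sums lay between them. WT DCs averaged 143 ± 32.0 TPM (SD, n = 5) and Δ*Gnas* DCs 126 ± 24.3 TPM (n = 4). *Akap13*, *Akap8l* and *Akap8* supplied 64.8 to 73.0% of it in WT and 63.2 to 70.3% in Δ*Gnas* DCs. *Akap10* supplied 9.10 ± 2.62% of the sum in WT and 14.1 ± 2.79% in Δ*Gnas* DCs. Within WT, replicate 7 was the lowest library for 7 of the 9 members tested and replicate 3 the highest for 6. The TMM factors, which correct for composition, were also lowest in WT replicate 7 (0.825) and highest in WT replicate 3 (1.21), and after this scaling WT replicate 7 was lowest for 5 members and WT replicate 3 highest for 4.

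**Figure D2:**
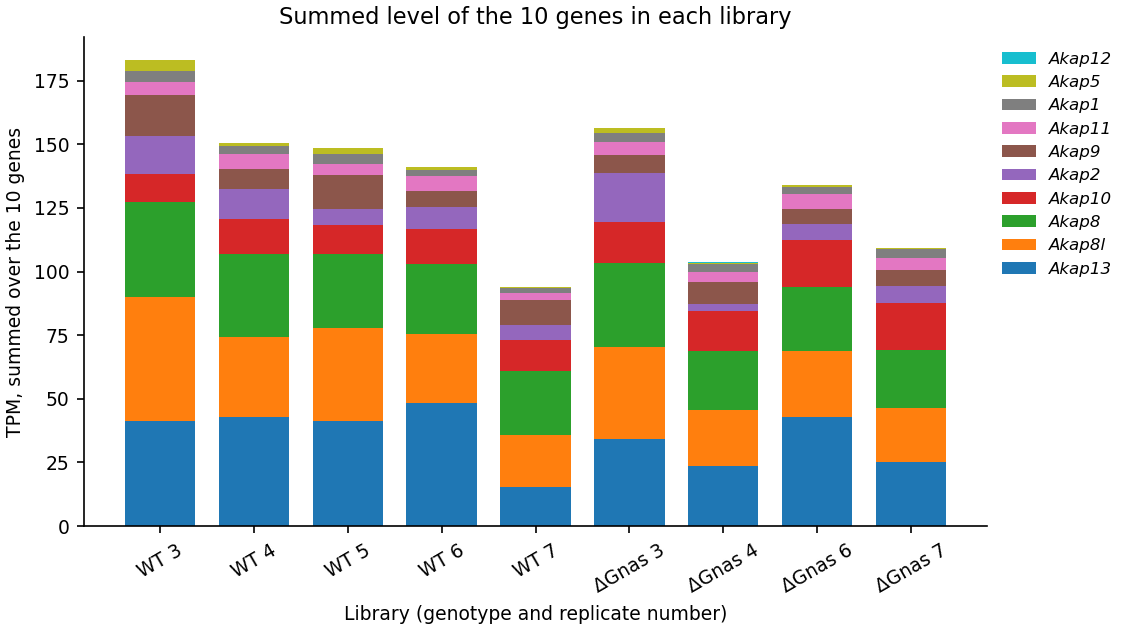
Summed level of the 10 genes in each library, in TPM, stacked by gene with the highest gene at the bottom. Sums run from 93.9 TPM in WT replicate 7 to 183 TPM in WT replicate 3, and *Akap13*, *Akap8l* and *Akap8* make up most of every bar.

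No member passed the test between genotypes. By the quasi-likelihood test of edgeR on estimated counts, with Benjamini-Hochberg adjustment over all genes tested and a threshold of 0.05, 0 of the 9 members tested were called, against 9.56% of all genes tested (5.41% higher and 4.15% lower in Δ*Gnas* DCs). At an unadjusted p under 0.05 there were 2 of 9 members, *Akap10* and *Akap9*, against 23.7% of all genes. DESeq2 called 1 member, *Akap10* (14.9% of all genes), limma-voom 0 (9.26%) and edgeR's exact test 0 (12.3%). At an unadjusted p under 0.05 these tools gave 3, 1 and 2 members, against 25.1%, 23.7% and 22.2% of all genes. The median log2 fold change of the members (Δ*Gnas* over WT) was -0.21, beside -0.0043 over all genes tested, with 3 members above 0 and 6 below, where 50.6% of all genes lay below 0. *Akap12* did not reach the filter of over 1 CPM (counts scaled to the library's total) in at least 3 libraries. A p that misses the threshold does not show equal levels, and the 95% interval given for each gene shows the differences that these libraries leave possible.

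**Figure D3:**
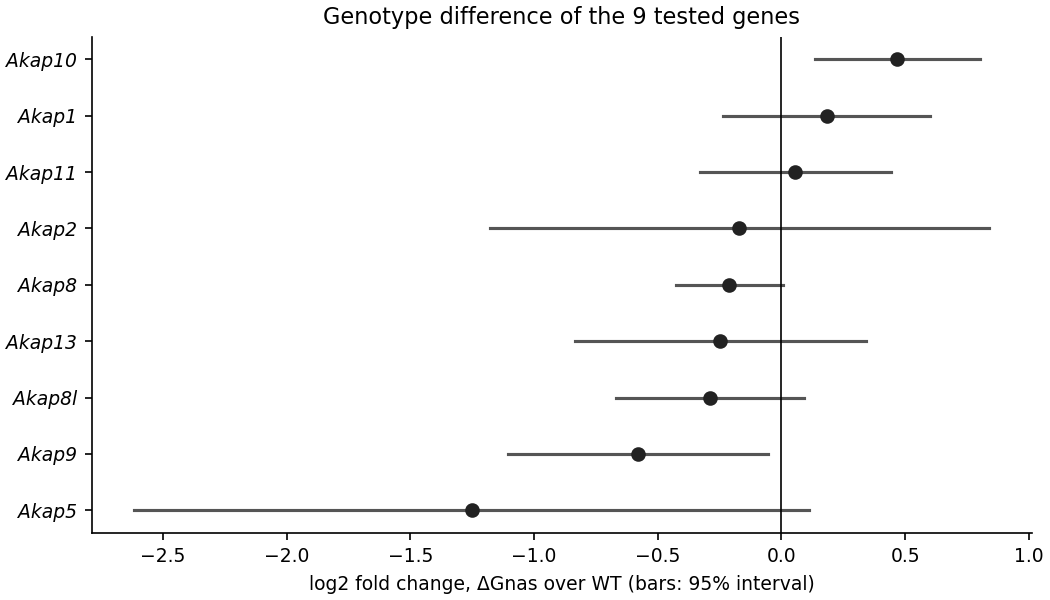
Log2 fold change of Δ*Gnas* over WT DCs for the 9 members tested, with bars for the 95% interval of edgeR's fit. The intervals of *Akap10*, from 0.14 to 0.80, and *Akap9*, from -1.10 to -0.06, do not include 0, and that of *Akap5* is the widest, from -2.61 to 0.11.

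The first group of members bind regulatory subunits of both types or carry their kinase on membranes of organelles. *Akap10* (chr11:61871307-61930252, minus strand, GRCm38) encodes an anchor for both types of regulatory subunit with domains of the regulators of G protein signalling family, found on endosomes and mitochondria. *Akap10* was at 11.1, 13.6, 11.4, 13.7 and 12.3 TPM in WT replicates 3 to 7 and at 16.3, 15.9, 18.3 and 18.5 TPM in Δ*Gnas* replicates 3, 4, 6 and 7. Every Δ*Gnas* library lay above every WT library, as in 10.6% of all genes tested (genes without overlap in TPM, in either direction). The means were 12.4 ± 1.20 TPM (SD, n = 5) and 17.3 ± 1.36 TPM (n = 4), and the coefficients of variation, 9.67% and 7.86%, were the smallest of all members in TPM. The log2 fold change of *Akap10* was 0.47 (SE 0.15, 95% interval 0.14 to 0.80), or 1.38-fold, with an adjusted p of 0.0818 in edgeR's quasi-likelihood test. It was called in 3 of 24 alternatives, by DESeq2 (14.9% of all genes called) and by limma-trend with a pseudocount of 1 TPM (7.18%) or 0.1 TPM (6.96%), with adjusted p from 0.0458 to 0.203 over all alternatives and a log2 fold change of 0.36 to 0.52. After TMM scaling the genotypes still did not overlap, at 9.13 to 14.9 CPM in WT and 15.04 to 19.3 CPM in Δ*Gnas* DCs, and the gap was narrow, with a WT spread of 12.5 ± 2.32 CPM, where 12.0% of all genes tested did not overlap on this scale.

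*Akap1* (chr11:88830792-88864586, minus strand) encodes an anchor of the outer mitochondrial membrane that also binds RNA. *Akap1* was at 4.32, 3.03, 3.65, 2.68 and 1.78 TPM in WT replicates 3 to 7 and at 3.84, 3.18, 3.07 and 3.59 TPM in Δ*Gnas* replicates 3, 4, 6 and 7. All Δ*Gnas* libraries lay within the WT range, and its log2 fold change was 0.18 (95% interval -0.23 to 0.60; edgeR, adjusted p = 0.609), and 0.07 without WT replicate 7. *Akap11* (chr14:78492246-78536808, minus strand) encodes a vesicle-associated anchor that also holds glycogen synthase kinase 3 and protein phosphatase 1. *Akap11* was at 5.12, 5.83, 4.65, 5.54 and 2.92 TPM in WT replicates 3 to 7 and at 5.13, 4.21, 5.70 and 4.73 TPM in Δ*Gnas* replicates 3, 4, 6 and 7. WT replicate 7 stood below all other libraries, which overlapped. The log2 fold change of *Akap11* was 0.06 (95% interval -0.33 to 0.44; edgeR, adjusted p = 0.887) and went to -0.05 without WT replicate 7 and to -0.02 without Δ*Gnas* replicate 6. *Akap11* and *Akap8* were the 2 members whose whole 95% interval lay within a 1.5-fold change, as it did for 46.0% of all genes tested.

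*Akap5* (chr12:76324891-76334153, plus strand) encodes an anchor of the plasma membrane that also holds calcineurin, protein kinase C and adenylyl cyclases, and it had the lowest level of the members tested and the widest interval. *Akap5* was at 4.18, 1.27, 2.43, 1.02 and 0.538 TPM in WT replicates 3 to 7 and at 1.83, 0.415, 0.451 and 0.381 TPM in Δ*Gnas* replicates 3, 4, 6 and 7. All but 1 of the Δ*Gnas* libraries lay below every WT library, while Δ*Gnas* replicate 3 lay above WT replicates 4, 6 and 7. The log2 fold change of *Akap5* was -1.25 (SE 0.61, 95% interval -2.61 to 0.11), with an adjusted p of 0.252 in edgeR's quasi-likelihood test. Without Δ*Gnas* replicate 3, a setting that called 13.5% of all genes, it was -2.08 with an adjusted p of 0.0409, the only 1 of 23 alternatives that called it, and without WT replicate 3 it was -0.85. The adjusted p ran from 0.0409 to 0.500 over these alternatives. Without Δ*Gnas* replicate 3 all Δ*Gnas* libraries were under 1 CPM, so *Akap5* passed the filter through WT libraries alone, where it was higher. Estimated counts of *Akap5* were 16.5 to 207 per library. Δ*Gnas* replicate 3 also had the highest sum of macrophage markers among the Δ*Gnas* libraries, 1414 against 732 to 1005 TPM in the other 3. Its sum of DC markers, most of it *Cd74*, was the highest of these libraries too, 23726 against 19599 to 20371 TPM. The part of either marker sum in the level of *Akap5* was not tested.

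*Akap12* (chr10:4266380-4359470, plus strand) encodes a scaffold of the plasma membrane that binds the β2-adrenergic receptor and protein kinase C. It had 0.584 to 2.95 estimated counts per library, under 3 in all 9, so no fold change was given. *Akap2* encodes an anchor linked to actin and the plasma membrane, and it had the largest ratio of the highest to the lowest Δ*Gnas* library in TPM among the members tested, 7.57. *Akap2* was at 14.8, 11.9, 6.30, 8.76 and 5.92 TPM in WT replicates 3 to 7 and at 19.1, 2.52, 6.08 and 6.50 TPM in Δ*Gnas* replicates 3, 4, 6 and 7. The highest and the lowest library were both Δ*Gnas* libraries, on either side of the WT range. The log2 fold change of *Akap2* was -0.17 (95% interval -1.18 to 0.84; edgeR, adjusted p = 0.863), and it was 0.13 without Δ*Gnas* replicate 4 and -0.86 without Δ*Gnas* replicate 3. *Akap2* lies at chr4:57717657-57896984 (GRCm38, plus strand) and overlaps *Pakap* on the same strand. The table lists the read-through transcript *Palm2Akap2* in a row of its own, at 0 TPM in WT replicate 7 and up to 2.39 TPM elsewhere, so reads of *Akap2* may be split between the rows. With both rows summed the count of members called was also 0, against 9.57% of all genes tested.

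*Akap9* encodes an anchor of the centrosome and the Golgi apparatus that also binds the γ-tubulin complex. *Akap9* was at 16.3, 7.92, 13.2, 6.39 and 9.59 TPM in WT replicates 3 to 7 and at 6.92, 8.54, 6.09 and 6.37 TPM in Δ*Gnas* replicates 3, 4, 6 and 7. WT replicates 3, 5 and 7 lay above every Δ*Gnas* library, and WT replicates 4 and 6 lay among them. The log2 fold change of *Akap9* was -0.58 (SE 0.24, 95% interval -1.10 to -0.06; edgeR, adjusted p = 0.165), below 0 in all 24 alternatives and called in 0 of them, with adjusted p from 0.0607 to 0.433. *Akap9* (chr5:3928054-4081310, plus strand, GRCm38) overlaps *Cyp51*, an enzyme of cholesterol synthesis on the opposite strand, which was at 20.5 ± 6.73 TPM (n = 5) in WT and 32.7 ± 7.04 TPM (n = 4) in Δ*Gnas* DCs. The libraries were stranded, and whether reads were assigned by strand was not given in the sources used here. *Akap13* (chr7:75455534-75754609, plus strand) encodes an anchor that is also an exchange factor for RhoA. *Akap13* was at 41.2, 43.1, 41.5, 48.5 and 15.4 TPM in WT replicates 3 to 7 and at 34.4, 23.5, 42.9 and 25.1 TPM in Δ*Gnas* replicates 3, 4, 6 and 7. WT replicate 7 lay below all other libraries, and the other WT libraries lay close together. The log2 fold change of *Akap13* was -0.25 (95% interval -0.83 to 0.34; edgeR, adjusted p = 0.624), and it ran from -0.50 without WT replicates 3 and 7 to -0.13 without WT replicate 6 over the alternatives.

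*Akap8* and *Akap8l* encode nuclear proteins, *Akap8* an anchor that binds chromatin and the nuclear matrix and *Akap8l* its homolog. They are neighbours on the minus strand of chromosome 17 in GRCm38, *Akap8* at 32303672 to 32321238 and *Akap8l* at 32321424 to 32350607, with 185 bases between them. *Akap8* was at 37.1, 32.8, 29.1, 27.7 and 25.1 TPM in WT replicates 3 to 7 and at 33.0, 23.3, 25.4 and 22.9 TPM in Δ*Gnas* replicates 3, 4, 6 and 7. *Akap8l* was at 48.9, 31.1, 36.4, 26.8 and 20.4 TPM in WT replicates 3 to 7 and at 36.0, 22.0, 25.9 and 21.2 TPM in Δ*Gnas* replicates 3, 4, 6 and 7. For both genes WT replicate 3 was the highest and WT replicate 7 the lowest WT library in TPM. Δ*Gnas* replicate 3 was the highest Δ*Gnas* library, and the genotypes overlapped. After TMM scaling this order of WT libraries held for *Akap8l* only, and *Akap8* was highest in WT replicate 4 (33.0 CPM) and lowest in WT replicate 6 (27.9 CPM). The log2 fold changes were -0.21 (95% interval -0.43 to 0.01; edgeR, adjusted p = 0.226) for *Akap8* and -0.29 (-0.67 to 0.09; 0.348) for *Akap8l*. Both were below 0 in all 24 alternatives and called in 0 of them.

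**Figure D4:**
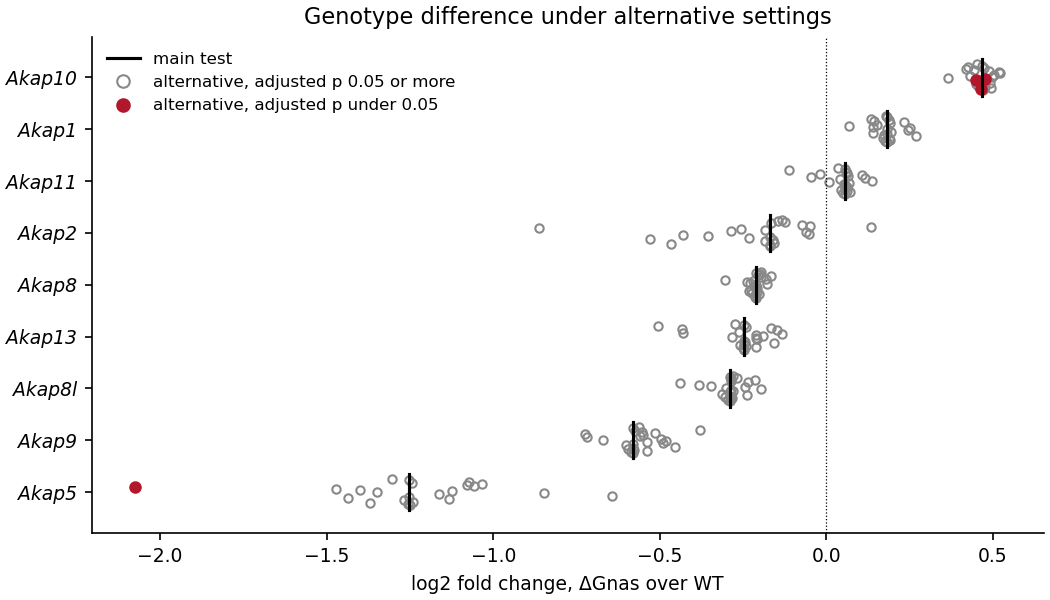
Log2 fold change of each member tested under every alternative (circles, filled red where the adjusted p was under 0.05) and in the main test (black line). *Akap10* is called in 3 alternatives and *Akap5* in 1, without Δ*Gnas* replicate 3, and *Akap2* and *Akap11* have alternatives on both sides of 0.

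The genotype differences of the members were compared between the sexes given by the labels. In edgeR, 0 of 9 members had an interaction of genotype and sex (0.0% of all genes tested), and 0 had one at an unadjusted p under 0.05 (1.45% of all genes), with a smallest p of 0.379 for *Akap11*. Limma-voom also gave 0 and 0 members (0.0% and 1.29% of all genes), as did edgeR (0.0% and 1.48%) without WT replicate 7, the library whose Y-linked level differs from its label. The interval of the interaction was wide, from -2.11 to 2.004 on the log2 scale for *Akap2* and from -2.07 to 3.11 for *Akap5*.

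PKA acts on transcription through CREB, which binds the cAMP response element TGACGTCA and its half-site TGACG, which reads CGTCA on the other strand. RefSeq promoters (GRCm38.p6, 250 bases before to 50 after a start) were at hand for 8 of 10 members under these symbols, all but *Akap2* and *Akap12*. The full element, searched on both strands, was in 0 of these 8 members and in 2.03% of all 27025 genes with a promoter. The half-site, which is part of the full element, was in 2 of the 8, *Akap11* and *Akap8l*, and in 23.0% of all genes. Promoters listed under *Pakap*, which overlaps *Akap2*, were not counted among these. Of those inside *Akap2*, the promoter at chr4:57854312-57854611 held a half-site and that at chr4:57844998-57845297 held none. The 250 bases upstream of the start are shown for *Akap11*, the member with the most half-sites, in capitals, at 221, 136 and 129 bases before the start (chr14:78536861-78537110, minus strand), and for *Akap10* (chr11:61930258-61930507, minus strand) and *Akap5* (chr12:76324641-76324890, plus strand), the members that some alternative called, in which no half-site was found.
Akap11: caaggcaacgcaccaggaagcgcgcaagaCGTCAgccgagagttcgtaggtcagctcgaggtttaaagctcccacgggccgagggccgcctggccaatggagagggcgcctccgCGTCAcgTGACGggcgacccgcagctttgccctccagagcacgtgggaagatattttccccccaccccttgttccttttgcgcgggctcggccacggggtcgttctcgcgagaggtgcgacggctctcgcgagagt
Akap10: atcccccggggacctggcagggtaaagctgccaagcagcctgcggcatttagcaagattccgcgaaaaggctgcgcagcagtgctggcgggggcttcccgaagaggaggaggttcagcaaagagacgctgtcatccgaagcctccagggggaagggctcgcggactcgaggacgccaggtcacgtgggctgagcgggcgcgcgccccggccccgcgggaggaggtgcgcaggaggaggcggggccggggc
Akap5: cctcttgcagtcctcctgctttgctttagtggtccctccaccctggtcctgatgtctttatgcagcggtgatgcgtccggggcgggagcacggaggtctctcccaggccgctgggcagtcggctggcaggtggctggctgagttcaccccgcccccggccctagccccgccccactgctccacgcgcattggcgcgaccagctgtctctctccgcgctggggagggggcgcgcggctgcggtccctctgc
A match of letters is not a site of binding.

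The proteins that AKAPs hold, and other genes of the pathway, were taken from lists. Of their 58 genes tested, 10 were called, 8 lower and 2 higher, where 9.56% of all genes tested were called, 4.15% lower and 5.41% higher. The study reports lower *Pde4b*, *Pde4d* and *Prkar2b* in Δ*Gnas* DCs. From its RNA-Seq and qPCR of the pathway it also reports unaltered AKAPs and no significant change in adenylyl cyclase isoforms. The lists were chosen with earlier results of these data known. The counts therefore describe the lists and do not test them. The sum of the macrophage markers, of which 6 of 8 fell, was also lower in every Δ*Gnas* library (732 to 1414 TPM, against 2395 to 3473 TPM in WT). The part of these markers in the differences was not tested. Among AKAP-named genes outside the members, *Akap7*, a small anchor of membranes, was the only one tested, at 9.52 to 13.9 TPM over all libraries and with a log2 fold change of -0.09 (edgeR, adjusted p = 0.742). *Akap17b* was at 0.515 to 1.29 TPM, *Akap3*, *Akap6*, *Akap14* and *Palm2* were at no more than 0.423 TPM, and *Akap4* was listed at 0 in all 9 libraries.

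Of the PKA subunits and inhibitor peptides, 2 of 8 tested fell and 0 rose (4.15% and 5.41% of all genes), with a median log2 fold change of -0.22, beside -0.0043 over all genes. *Prkar2b*, the RIIβ regulatory subunit that AKAPs bind, was at 47.5, 21.1, 30.7, 20.5 and 16.5 TPM in WT replicates 3 to 7 and at 13.6, 10.2, 10.4 and 10.2 TPM in Δ*Gnas* replicates 3, 4, 6 and 7, without overlap. It fell by 1.25 on the log2 scale (SE 0.21; edgeR, adjusted p = 0.00701) and was called in 24 of 24 alternatives. *Pkib*, an inhibitor peptide of the catalytic subunits, was at 179 to 712 TPM in WT and 47.8 to 162 TPM in Δ*Gnas* DCs and fell by 1.87 (adjusted p = 0.0223 in edgeR). The call for *Pkib* was lost without Δ*Gnas* replicate 4, 6 or 7 and without WT replicates 3 and 7, with adjusted p up to 0.0802. The highest genes of this list beside *Pkib* were *Prkar1a*, the RIα subunit, at a mean of 129 TPM in WT against 112 TPM in Δ*Gnas* DCs (edgeR, adjusted p = 0.272), and the inhibitor *Pkig*, with means of 39.1 and 32.4 TPM (edgeR, adjusted p = 0.293). The RII genes *Prkar2a* and *Prkar2b* summed to 29.2 to 90.1 TPM in WT and 28.6 to 41.5 TPM in Δ*Gnas* DCs. The 10 members gave 2.03 to 3.21 TPM per TPM of RII in WT and 3.02 to 4.03 in Δ*Gnas* DCs, ranges that overlapped.

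Of 15 tested genes of other proteins reported to anchor PKA, 2 fell and 0 rose (4.15% and 5.41% of all genes), with a median log2 fold change of 0.13, beside -0.0043. *Pik3cg*, the catalytic subunit of phosphoinositide 3-kinase γ, was at 21.1 to 46.4 TPM in WT and 12.5 to 18.8 TPM in Δ*Gnas* DCs and fell by 1.05 on the log2 scale (edgeR, adjusted p = 0.00691). *Itga4*, the integrin α4 chain, was at 30.3 to 50.04 TPM in WT and 14.6 to 23.8 TPM in Δ*Gnas* DCs and fell by 0.97 (edgeR, adjusted p = 0.0103). Both were called in 24 of 24 alternatives. The highest genes of this list were *Msn* and *Ezr*, which link membrane and actin, and *Rab32*, a GTPase of mitochondria and melanosomes, with log2 fold changes of 0.24, 0.36 and 0.25 (edgeR, adjusted p = 0.182, 0.279 and 0.489).

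Of 29 tested enzymes and partners held by AKAPs, 2 rose and 3 fell (5.41% and 4.15% of all genes), with a median log2 fold change of 0.09, beside -0.0043. The cAMP phosphodiesterases *Pde4d* and *Pde4b* fell by 2.52 and 1.37 on the log2 scale (edgeR, adjusted p = 0.00249 and 0.00879), from 9.88 to 23.1 TPM in WT to 1.37 to 4.54 TPM in Δ*Gnas* DCs and from 99.1 to 183 TPM to 31.2 to 76.9 TPM, and both were called in 24 of 24 alternatives. *Ppp3ca*, the calcineurin catalytic subunit α, fell by 0.57 (edgeR, adjusted p = 0.0273). *Prkcb*, protein kinase Cβ, rose by 1.01 (adjusted p = 0.0224 in edgeR) and *Mcm2*, a subunit of the replicative helicase that binds AKAP8, rose by 0.67 (adjusted p = 0.0121). The calls were kept in 17 of 24 alternatives for *Ppp3ca*, 18 for *Prkcb* and 22 for *Mcm2*, with adjusted p up to 0.127, 0.0712 and 0.0612. Those for *Ppp3ca* and *Prkcb* were both lost without WT replicate 4, without Δ*Gnas* replicate 4, 6 or 7, and without WT replicates 3 and 7, and that for *Prkcb* also without WT replicate 7 alone. *Ppp3ca* and *Mcm2* were not called by limma-trend on log2 TPM. The highest genes of this list, *Rhoa*, *Prkcd* and *Ppp1ca*, had log2 fold changes of 0.14, 0.46 and 0.09 (edgeR, adjusted p = 0.555, 0.167 and 0.646).

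Of 5 adenylyl cyclases tested, 1 fell and 0 rose (4.15% and 5.41% of all genes), with a median log2 fold change of 0.43, beside -0.0043. *Adcy4* was at 0.896 to 2.54 TPM in WT and 0.246 to 0.703 TPM in Δ*Gnas* DCs and fell by 1.72 (edgeR, adjusted p = 0.0326). All Δ*Gnas* libraries were under 1 CPM, so *Adcy4* passed the filter through WT libraries alone, the genotype where it was higher. The study reports no significant change in adenylyl cyclase isoforms. The call was kept in 15 of 23 alternatives, with adjusted p up to 0.0984. It was lost without WT replicate 4 or 5 or Δ*Gnas* replicate 3, 6 or 7, and without WT replicates 3 and 7. It was also lost with the labelled sex in the fit, and with a replicate block, a fit without WT replicate 5. *Adcy6*, *Adcy7* and *Adcy9*, the highest 3 by level, had log2 fold changes of -0.66, 0.49 and 0.43 (edgeR, adjusted p = 0.453, 0.0697 and 0.411). *Adcy6* was called without Δ*Gnas* replicate 3, at -1.42 (adjusted p = 0.0266, the lowest of all its alternatives, the highest being 0.721), the library whose removal also called *Akap5*. *Adcy7* was called in 5 of 24 alternatives, among them those without WT replicate 6 and without Δ*Gnas* replicate 3, with adjusted p from 0.0240 to 0.208.

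**Figure D5:**
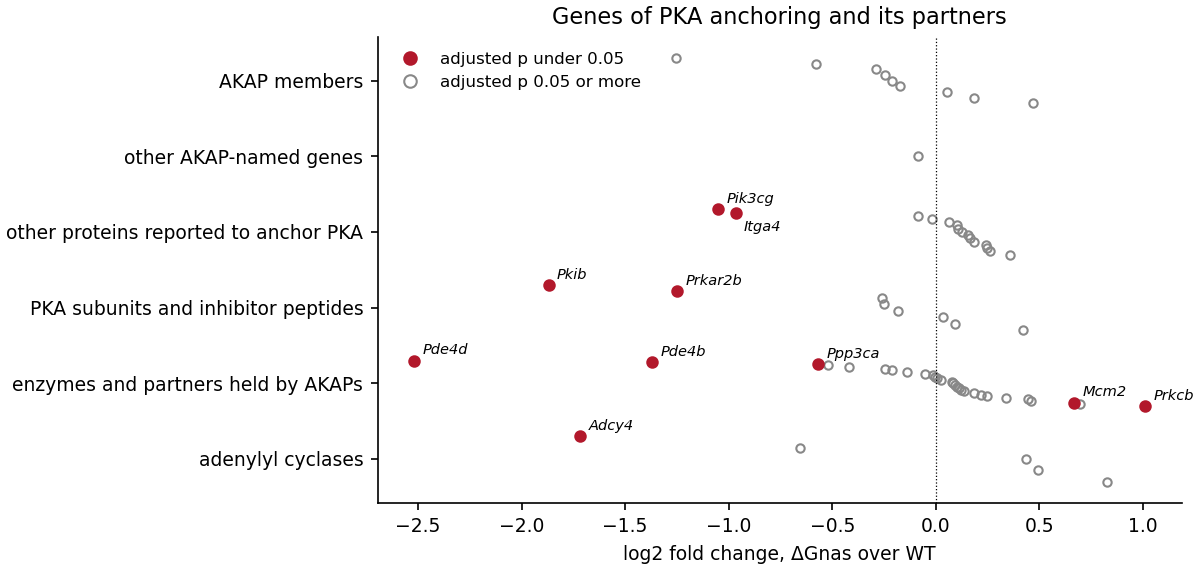
Log2 fold change of Δ*Gnas* over WT DCs for the members and for the listed genes of PKA anchoring, with filled red circles where the adjusted p was under 0.05. The members have none and the other lists 10, from *Pde4d* at -2.52 to *Prkcb* at 1.01.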

How the data were processed

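RNA-Seq libraries of CD11c-selected DCs, 5 WT and 4 Δ*Gnas*, were grouped by label. The authors made stranded mRNA libraries, trimmed reads with BBDuk, assigned them to Ensembl 79 transcripts (GRCm38) with Kallisto 0.43.1, summed transcripts to genes with tximport, and deposited TPM values and estimated counts. The submitters' notes also name FastQC and edgeR. Within a library the estimated counts equal TPM times 1 factor (34.3 to 49.4), so they carry no gene length and are not numbers of reads. Of 30620 rows, 32 name no gene (0.0843 to 0.121% of counts) and were left out.

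Counts were rounded and scaled by TMM. The 11862 genes that passed 1 CPM in 3 or more libraries were tested by edgeR 4.0.16 (glmQLFit, glmQLFTest, in R 4.3.3) with no covariate, in place of the study's exact test, and adjusted by Benjamini-Hochberg at 0.05. Standard errors were the size of the log2 fold change divided by the root of F. Neighbours in the order of levels were compared by an exact sign-flip permutation test in Python 3.11.15. Alternatives were edgeR's exact test, DESeq2 1.42.0, limma 3.58.1 (voom, and trend on log2 TPM), upper-quartile factors, no filter, a filter of over 5 CPM, robust empirical Bayes, sex as a covariate, a block for the replicate number, and leaving out each library. After seeing the data, 5 were added: counts rescaled by the longest transcript, the fit without WT replicates 3 and 7, *Akap2* summed with *Palm2Akap2*, sex by Y-linked expression, and the order of levels with each library left out and its pairs kept. The fit with a block left out WT replicate 5, as no Δ*Gnas* library has that number. The quasi-likelihood test was tried on simulated data. Named genes are the members, *Gnas*, and in each list the called genes and the 3 with the highest mean TPM. *Cyp51*, *Itgax*, *Cd74*, *Ddx3y*, *Prkar2a*, *Palm2Akap2* and the AKAP-named genes not tested were named outside this rule, after values were seen. The members and lists were chosen with earlier results of these data known. Gene positions come from GENCODE M21 and promoters from RefSeq. Single transcripts, qPCR and proteins were not analysed here. Kallisto splits reads that match more than 1 transcript. With 34252701 to 49427934 estimated counts per library, *Akap12* had under 3 of these in each.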

Additional observations from a re-analysis of the deposited data

Results flagged for a closer look

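Of 22 groups of values (each member and their sum, by genotype) tested for a library far from the others by Dixon's test, 2 had one, and chance gives about 1 in 20. *Akap5* in Δ*Gnas* replicate 3 was 1.83 TPM, against 0.381 to 0.451 TPM in the other Δ*Gnas* libraries, a gap of 0.952 of the group's range. *Akap13* in WT replicate 7 was 15.4 TPM, against 41.2 to 48.5 TPM in the other WT libraries, a gap of 0.780 of the range, and after TMM scaling the gap was 0.508 and no longer past the test's limit. Without WT replicate 7, the library whose Y-linked level differs from its label, 0 members were called, against 7.39% of all genes tested.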

How the results depend on the processing

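The count of members called was 0 in the main test and 1 (*Akap10*) under DESeq2, limma-trend on log2(TPM + 1) and limma-trend on log2(TPM + 0.1). Leaving out single libraries gave 0 to 1 called members, with 1 (*Akap5*) without Δ*Gnas* replicate 3. The other alternatives called 0, and 7 of the 9 members tested were called in none. *Akap11*, at -0.05 to 0.14 when single libraries were left out, changed sign, to -0.05 without WT replicate 7, -0.02 without Δ*Gnas* replicate 6 and -0.11 without WT replicates 3 and 7, and *Akap2*, at -0.86 (without Δ*Gnas* replicate 3) to 0.13, changed sign to 0.13 without Δ*Gnas* replicate 4. The cause was not tested. Of the listed genes 10 were called, 6 to 11 with 1 library left out (6 without Δ*Gnas* replicate 6 or 7), 6 without WT replicates 3 and 7, and 8 to 12 under the other alternatives. Over all genes 1134 were called, against 1464 by the exact test, 1769 by DESeq2, 469 without WT replicates 3 and 7, and 519 to 1586 with 1 library left out.

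Libraries with the same replicate number deviated from their group means with correlations of 0.294 (3), -0.0423 (4), 0.248 (6) and 0.163 (7). Between libraries of different numbers the correlations ran from -0.252 to 0.222, so those of numbers 3 and 6 were the highest. The main test did not take the numbers as pairs. Whether a number marks a shared preparation was not given in the sources used here. With the replicate number as a block and without WT replicate 5, edgeR called 0 members (1187 genes in all were called) and 9 listed genes. The smallest adjusted p of a member in this edgeR fit was 0.0503 (*Akap5*).

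The limits are the number of libraries, 4 against 5, and the sum over transcripts, which hides changes between isoforms. The low levels of *Akap12* (under 3 estimated counts in each library) and *Akap5* (16.5 to 207) are a further limit. Estimated counts are scaled TPM here, so the numbers of reads behind these values are not known. The filter of over 5 CPM left 7 members, without *Akap1* and *Akap5*.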
